A study of Mus musculus with 7 samples.

Results

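Stretches of the mouse genome where regions bound by both LEF1 and TCF1 lie close together in naive CD8 T cells were described. Peaks of 6 CUT&RUN libraries were merged where they overlapped by at least 1 bp, and a region was called shared when all 6 libraries had a peak in it. Shared regions less than 12.5 kb apart on a chromosome were joined, and runs of 4 or more regions were kept as clusters. Of 38215 regions, 10887 were shared, and 1614 of these lay in 317 clusters, which was 14.8% of the shared regions and 4.22% of all regions. The regions were chosen by the presence and position of peaks in all 6 libraries, so their number, spacing and presence in every library are given as a description.

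CUT&RUN maps a DNA-bound protein in permeabilised cells: an antibody brings a nuclease to the protein, which cuts the DNA on either side, and the released fragments are sequenced. The study profiled 3 libraries with an antibody to LEF1 and 3 with an antibody to TCF1, all from wild-type mouse spleen CD8 T cells with the transgenic P14 T cell receptor. The cells were sorted as positive for CD8, Ly5.1 and CD62L and negative for CD44, the phenotype of T cells that have not met antigen, and were fixed with PFA before the antibody was added. The P14 receptor recognises a viral peptide, so nearly all such cells share a receptor. An input control of CD44-positive, Ly5.1-negative CD8 T cells, another gate, is the other sample of the series, and no peak list of it was analysed here. The age of the mice is not given, nor whether the replicates were separate mice, so p-values measure the spread between libraries, which may be technical.

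LEF1 (gene Lef1) and TCF1 (gene Tcf7) belong to the HMG-box family that ends the Wnt pathway: each binds the same short DNA motif, recruits repressors of the TLE family, and can be turned to an activator by beta-catenin. In T cells both are needed for the CD8 lineage in the thymus, and TCF1 is known for keeping naive and memory T cells in a self-renewing state. Genes that define a cell type are often flanked by dense groups of enhancers, short stretches of DNA that bind many transcription factors at once and raise the expression of a gene from a distance. Peak lists show where each antibody directed cuts, and they measure neither the expression of a gene nor which gene an enhancer serves.

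Promoters that lay in a cluster region were compared first, because their letters can be read from RefSeq promoters of the build of the peak files (GRCm38.p6), each from 250 bases before to 50 after a transcript start. Of these, 194 promoters of 175 genes overlapped a cluster region, of 21044 promoters of 17273 protein-coding genes matched. Motifs searched on both strands were CTTTGAT and CTTTGTT (forms of the LEF1 and TCF1 site), CCGGAAG (the ETS family) and TGTGGTT (the RUNX family). The sequences below, each 5′ to 3′ on the strand of its gene and with matches in capitals, are the promoters of Cd8a and Tcf7, which encode a chain of the CD8 coreceptor and TCF1 itself, both promoters of the T cell kinase gene Lck, the promoters of the transcription factor gene Runx1, of the interferon receptor gene Ifnar1 and of the membrane protein gene Emb, which hold matches, and those of Oga and Junb, whose clusters stood on the TCF1 side in the rank comparison further on. The Tcf7 stretch belongs to a transcript start inside the gene, whose body runs to position 52283383, and not to the outer end of the gene.
Cd8a, chr6:71373177-71373476, plus strand: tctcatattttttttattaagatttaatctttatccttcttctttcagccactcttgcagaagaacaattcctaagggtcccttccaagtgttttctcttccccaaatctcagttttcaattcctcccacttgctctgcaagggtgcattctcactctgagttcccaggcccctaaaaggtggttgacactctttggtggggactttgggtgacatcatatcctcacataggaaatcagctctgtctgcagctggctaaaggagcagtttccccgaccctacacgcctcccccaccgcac
Tcf7, chr11:52282965-52283264, minus strand: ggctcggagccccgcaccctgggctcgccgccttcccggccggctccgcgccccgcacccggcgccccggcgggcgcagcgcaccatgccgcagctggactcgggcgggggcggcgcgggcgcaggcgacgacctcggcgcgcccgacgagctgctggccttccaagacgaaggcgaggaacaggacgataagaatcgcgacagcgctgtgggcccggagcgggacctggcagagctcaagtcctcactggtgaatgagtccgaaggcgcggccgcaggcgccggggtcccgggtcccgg
Lck distal, chr4:129573592-129573891, minus strand: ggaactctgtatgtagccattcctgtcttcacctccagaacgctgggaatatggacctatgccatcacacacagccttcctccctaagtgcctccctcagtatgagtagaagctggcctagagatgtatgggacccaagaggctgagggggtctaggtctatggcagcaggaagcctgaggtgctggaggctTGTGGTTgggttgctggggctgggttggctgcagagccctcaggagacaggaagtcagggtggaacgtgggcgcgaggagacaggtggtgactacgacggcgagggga
Lck proximal, chr4:129558323-129558622, minus strand: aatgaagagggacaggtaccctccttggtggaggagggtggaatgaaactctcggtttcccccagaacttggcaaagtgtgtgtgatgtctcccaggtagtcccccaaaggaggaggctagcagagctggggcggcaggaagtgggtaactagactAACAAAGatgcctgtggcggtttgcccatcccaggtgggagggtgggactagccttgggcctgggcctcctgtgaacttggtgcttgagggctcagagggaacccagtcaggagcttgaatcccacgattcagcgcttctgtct
Runx1, chr16:92826025-92826324, minus strand: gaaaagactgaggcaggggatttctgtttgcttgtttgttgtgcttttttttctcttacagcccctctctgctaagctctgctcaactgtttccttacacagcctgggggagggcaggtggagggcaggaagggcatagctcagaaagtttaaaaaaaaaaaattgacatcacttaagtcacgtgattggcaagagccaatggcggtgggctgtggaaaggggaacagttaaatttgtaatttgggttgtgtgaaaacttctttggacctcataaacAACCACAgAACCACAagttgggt
Ifnar1, chr16:91484965-91485264, plus strand: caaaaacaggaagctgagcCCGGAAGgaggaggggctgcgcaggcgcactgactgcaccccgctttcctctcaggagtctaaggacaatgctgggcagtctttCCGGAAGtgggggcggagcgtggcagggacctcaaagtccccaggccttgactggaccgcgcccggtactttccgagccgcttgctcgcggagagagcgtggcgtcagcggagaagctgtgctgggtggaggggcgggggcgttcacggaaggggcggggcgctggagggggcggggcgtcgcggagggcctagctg
Emb, chr13:117220323-117220622, plus strand: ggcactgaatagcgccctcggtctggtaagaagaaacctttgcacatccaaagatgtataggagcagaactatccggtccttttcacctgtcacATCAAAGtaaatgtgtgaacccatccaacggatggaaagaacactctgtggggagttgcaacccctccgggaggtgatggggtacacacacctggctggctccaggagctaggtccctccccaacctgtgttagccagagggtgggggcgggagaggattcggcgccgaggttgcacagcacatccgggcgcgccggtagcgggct
Oga, chr19:45783504-45783803, minus strand: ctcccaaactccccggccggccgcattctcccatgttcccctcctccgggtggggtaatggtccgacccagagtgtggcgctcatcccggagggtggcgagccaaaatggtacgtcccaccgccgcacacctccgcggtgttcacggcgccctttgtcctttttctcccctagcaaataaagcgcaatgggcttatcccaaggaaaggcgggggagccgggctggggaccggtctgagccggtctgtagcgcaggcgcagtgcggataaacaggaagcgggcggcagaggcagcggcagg
Junb, chr8:84978699-84978998, minus strand: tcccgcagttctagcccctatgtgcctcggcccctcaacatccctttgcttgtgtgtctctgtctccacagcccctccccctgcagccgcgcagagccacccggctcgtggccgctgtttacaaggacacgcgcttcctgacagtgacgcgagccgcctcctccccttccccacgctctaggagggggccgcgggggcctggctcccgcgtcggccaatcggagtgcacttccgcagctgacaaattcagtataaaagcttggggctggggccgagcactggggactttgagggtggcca

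The shares of cluster promoters with a match to the LEF1 and TCF1 site lay within counting error of those of all promoters. These counts leave out chromosome 18, which holds 7 of the clusters and whose promoters were not analysed here. CTTTGAT stood in 3.09% of the cluster promoters (95% exact binomial interval 1.14 to 6.61), in 4.02% of 3532 promoters in other shared regions and in 3.25% of all promoters. CTTTGTT stood in 3.61%, 3.77% and 4.99% of them. The Lck proximal promoter holds CTTTGTT, written AACAAAG on the strand of the gene, 94 bases before the start, and the Emb promoter holds CTTTGAT, written ATCAAAG, 156 bases before it. CCGGAAG stood in 19.1% of cluster promoters (13.8 to 25.3), in 22% of promoters in other shared regions and in 11.7% of all, and the Ifnar1 promoter holds 2 copies. This motif holds a CG, and the 3 sets differ in CG count in the same order, with medians of 18, 22 and 13. The part of base content in the shares was not tested. TGTGGTT stood in 6.7% of cluster promoters (3.62 to 11.2), in 3.6% of those in other shared regions and in 4.74% of all. The Runx1 promoter holds 2 copies separated by a single base, 27 and 35 bases after the start, and the distal Lck promoter holds 1, 58 bases before it. The promoters of Cd8a, Oga and Junb and the printed internal promoter of Tcf7 hold none of the 4 motifs. These are matches of letters, not measured sites, and the intervals cover counting error only.

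The LEF1 libraries held 27654, 37632 and 23695 peaks on chromosomes 1 to 19 and X, in the order of their replicate numbers, against 25616, 22894 and 11418 with the TCF1 antibody. Peak lists carry no read totals, so the depth of the libraries is unknown. TCF1 replicate 3 had the fewest peaks and the lowest fold enrichments, with a median of 10.5 in cluster regions against 20.7 to 34.7 in the other 5 libraries. Since a shared region must be in every list, this library sets much of the count: when its peak was not required, 883 clusters with 5098 regions were found, and with any other library left out no count moved by over 1.5 times. Genes listed as CD8 T cell markers, which include genes of T cells in general, were touched more often than those listed for other cells. Of 10 CD8 T cell markers 9 held a shared region and 6 were touched by a cluster, against 0 and 0 of 10 B cell markers and 2 and 0 of 10 myeloid markers. Of 10 NK cell markers 2 held a shared region and 1, Il2rb, was touched, and of 8 markers of helper and regulatory T cells 4 held a shared region and 1, Il2ra, was touched, both touched ones being receptor genes that CD8 T cells can also use. Over all protein-coding genes, 25.4% held a shared region in the body and 1.61% were touched by a cluster. The myeloid and NK shares with a shared region lie near the first of these values, and that of helper and regulatory T cells lies above it.

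The clusters were short stretches, most with few regions. There were 157 clusters with 4 regions, 68 with 5, 41 with 6 and 51 with 7 or more, and the most regions in a cluster was 14. A cluster spanned a median of 20.9 kb (quartiles 15.6 and 28.9, range 6.39 to 74.6), and all clusters together spanned 7.24 Mb. Within a span, regions lay a median of 3.67 kb apart and covered a median of 21.8% of the bases, and the median density was 2.33 regions per 10 kb. At the edge of the rule, the largest gap joined was 12498 bp and the smallest not joined was 12501 bp, and 381 runs had 3 regions and stayed out. The median gap between neighbouring shared regions over the genome was 38.7 kb. The spans held another 956 regions that lacked a peak in at least 1 library, with a median of 2 per cluster and none in 45 clusters.

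**Figure D1:**
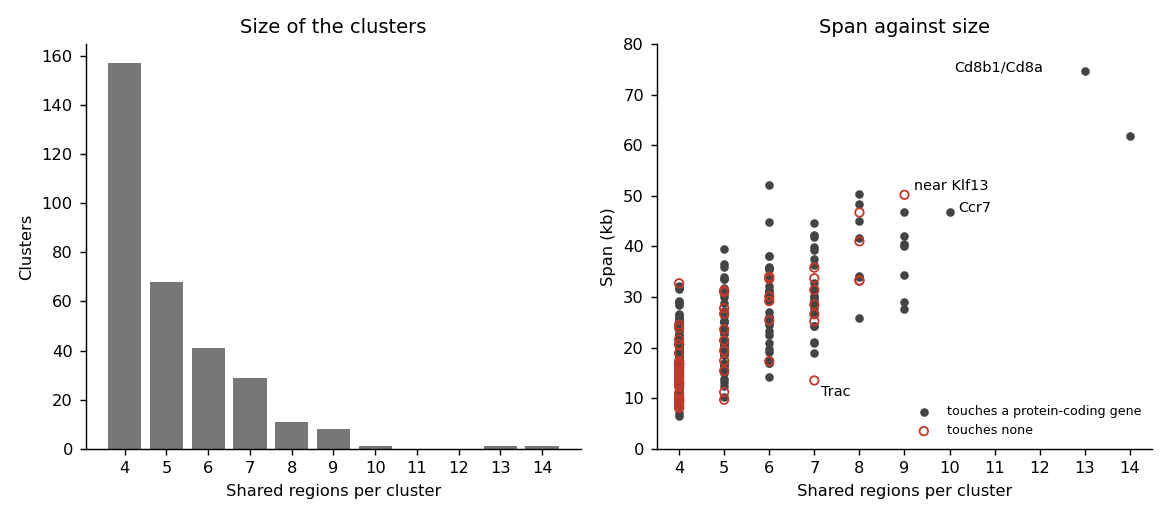
Left, number of clusters (y axis) by number of shared regions per cluster (x axis). Right, span in kb (y axis) against number of shared regions (x axis), with 1 point per cluster, filled where the span touches a protein-coding gene and open where it touches none; the Cd8b1/Cd8a cluster with 13 regions has the longest span, 74.6 kb, and the cluster beside Trac holds 7 regions in 13.5 kb.

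Cluster regions lay away from the ends of genes more than other shared regions did. Of the 1614 cluster regions, 262 (16.2%, interval 14.5 to 18.1) lay within 1 kb of an end of a protein-coding gene, against 36.5% (35.5 to 37.5) of 9273 other shared regions. Another 48.5% lay inside a gene body and 35.3% outside genes, against 36.2% and 27.3%. The intervals treat regions as independent, although the regions of a cluster are neighbours and often share a gene, so they are too narrow. The gene table used has neither strand nor exons, so exons, introns and UTRs were not told apart. The share at gene ends fell with the number of regions joined, from 43% of 5818 lone regions through 27.3% in pairs and 22% in runs of 3 to 17.1% in runs of 4 or 5 and 14.9% in runs of 6 or more. Cluster regions were also wider, with a median of 791 bp against 675 bp. In each library 13.9% to 15.4% of cluster regions were among the strongest 10% of shared regions by fold enrichment, against 9.07% to 9.31% of other shared regions.

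Clusters touched 348 of 21627 protein-coding genes, which was 1.61% of them, a gene being touched when a cluster span overlapped its body. Of the 317 clusters, 186 touched 1 gene, 44 touched 2, 23 touched 3 or more and 64 (20.2%) touched none. The touched genes were longer than protein-coding genes at large, with a median length of 28.2 kb against 17.3 kb, and 343 of them were among the 5495 genes with a shared region in the body, of which 6.24% were touched. Bach2, Grap2, Itpkb, Prkch, Rasa3, Sgms1, St8sia1, Ubac2 and Wwox were each touched by 2 clusters.

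Genes of naive T cells and of T cell identity were touched most often among the 8 lists compared. The naive and stem-like list had 12 of 25 genes touched (48%), among them Tcf7, Ccr7, Bach2, Foxp1, Satb1, Bcl2, Cxcr5, Cd27, Klf3, Ikzf1 and Ets1. The T cell identity list had 9 of 20 touched, among them Cd247, Cd8a, Cd8b1, Cd5, Cd2, Lck, Bcl11b and Runx1. The list of T cell receptor signalling had 6 of 20 touched, among them Lck, Vav1, Ptprc and Prkcq. Cytokine receptors had 6 of 19 touched (Il2rb, Il18r1, Ifngr1, Ifngr2, Ifnar1 and Tgfbr2), and homing and adhesion genes also 6 of 19 (among them Ccr7, Selplg, Itga4, Cxcr4 and Gpr183). Effector and exhaustion genes had 4 of 30 touched (Tnf, Nr4a1, Il2ra and Fasl), Wnt pathway genes 3 of 21 (Tcf7, Znrf3 and Rnf43) and housekeeping genes 2 of 24 (Actb and Psma1). All 8 shares lie above the 1.61% of all genes, including that of the housekeeping list. Among genes with a shared region in the body, where the share over all genes was 6.24%, clusters touched 12 of 22 naive, 9 of 18 identity, 6 of 14 cytokine receptor, 6 of 15 homing, 6 of 19 receptor signalling, 3 of 12 Wnt, 4 of 18 effector and 2 of 12 housekeeping genes. The lists differ in gene length, with medians of 29.4 kb for naive, 23.2 kb for identity, 28.8 kb for cytokine receptor, 17.4 kb for homing, 77.8 kb for receptor signalling, 73.5 kb for Wnt, 15.7 kb for effector and 5.51 kb for housekeeping genes, and the part of length in the counts was not tested. The lists were drawn up with earlier results of these data known, and no test was made of them. Without TCF1 replicate 3, 4.65% of all genes were touched and the order changed: the counts were 16 of 20 for identity, 18 of 25 for naive, 14 of 20 for receptor signalling, 10 of 19 for cytokine receptors, 11 of 19 for homing, 9 of 30 for effector, 5 of 21 for Wnt and 3 of 24 for housekeeping genes, so that identity came before naive genes and receptor signalling close behind them.

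**Figure D2:**
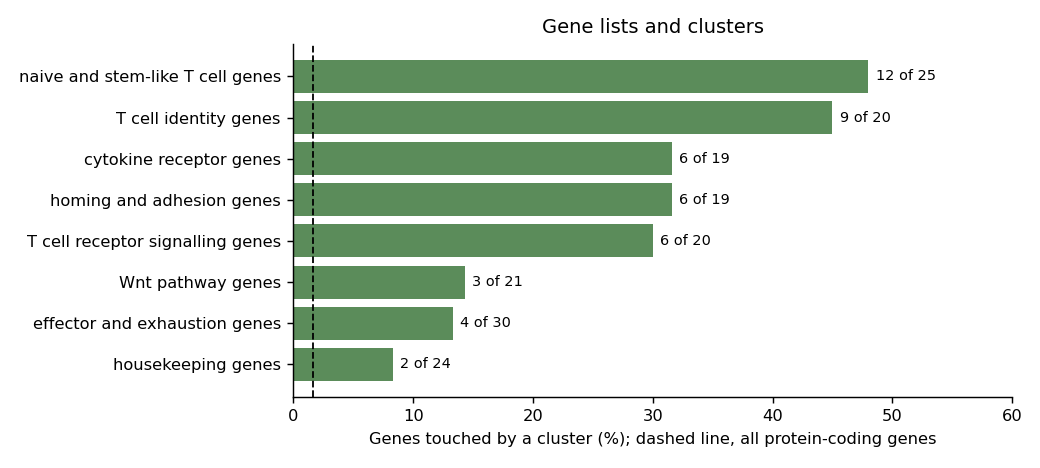
Share of the genes of each list that are touched by a cluster (x axis, percent), with the count beside each bar; the dashed line is the 1.61% of all protein-coding genes. The naive and stem-like list reaches 48% and the housekeeping list has 2 of 24 genes touched.

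The cluster over Cd8b1 and Cd8a (chromosome 6, 71307573 to 71382185) was the longest, with 13 regions in 74.6 kb. The 2 genes encode the chains of the CD8 coreceptor, and the stretch beside them is known for a set of enhancers that act at different stages of T cell life. Strength is given as the authors' fold enrichment of the highest peak of a region, the signal at its summit over the local background, and as the rank percentile of that value among the shared regions of the same library, where 0 is the strongest and 100 the weakest. The strongest region, 71321636 to 71323003 at a gene end, had fold enrichments of 94.5, 115 and 96.6 in LEF1 replicates 1, 2 and 3 and of 105, 106 and 54.5 in TCF1 replicates 1, 2 and 3. It was the strongest of the cluster in all 6 libraries and was within the strongest 2% of shared regions in each. No other region of the cluster came near it: the region inside Cd8a, 71376484 to 71377295, ranked between 18.3 and 31.2 over the 6 libraries. The region over the Cd8a promoter, 71372947 to 71373657, had 18.8, 23.1 and 16.2 in LEF1 and 19.3, 16.8 and 9.99 in TCF1, and ranked between 48.1 and 67.8. Another 16 regions that were not in all 6 libraries lay within this span, the most of any cluster.

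Ccr7, which encodes the chemokine receptor that leads naive T cells into lymph nodes, had 10 regions in 46.8 kb (chromosome 11, 99130730 to 99177526). Of these, 2 lay inside the gene and 1 at its end, and 7 lay outside genes. The strongest, 99170586 to 99171828, lay outside genes. Its fold enrichments were 106, 140 and 97 in LEF1 replicates 1, 2 and 3 and 99.8, 87.5 and 48.1 in TCF1 replicates 1, 2 and 3, and it ranked between 0.629 and 1.24. The region at the gene end, 99154430 to 99155606, had 58.2, 83.5 and 49.7 in LEF1 and 53.4, 46.8 and 25.6 in TCF1. Thus the region outside the gene was the higher of the 2 in each of the 6 libraries.

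From the constant segment of the T cell receptor alpha chain, Trac, towards Dad1 ran a dense cluster that touched no protein-coding gene as the table lists them (chromosome 14, 54220515 to 54234057). It held 7 regions in 13.5 kb, or 5.17 per 10 kb. The enhancer of the alpha chain locus is known to lie downstream of Trac. The region nearest to Dad1, 54232399 to 54234057, had fold enrichments of 106, 139 and 85.1 in LEF1 replicates 1, 2 and 3 and of 114, 114 and 60 in TCF1 replicates 1, 2 and 3. It was within the strongest 2% of shared regions in each library. A region in the middle, 54224954 to 54226246, ranked at 31.9, 33.6 and 36.9 in LEF1 and at 60.7, 50.5 and 67 in TCF1, and the groups did not overlap.

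**Figure D3:**
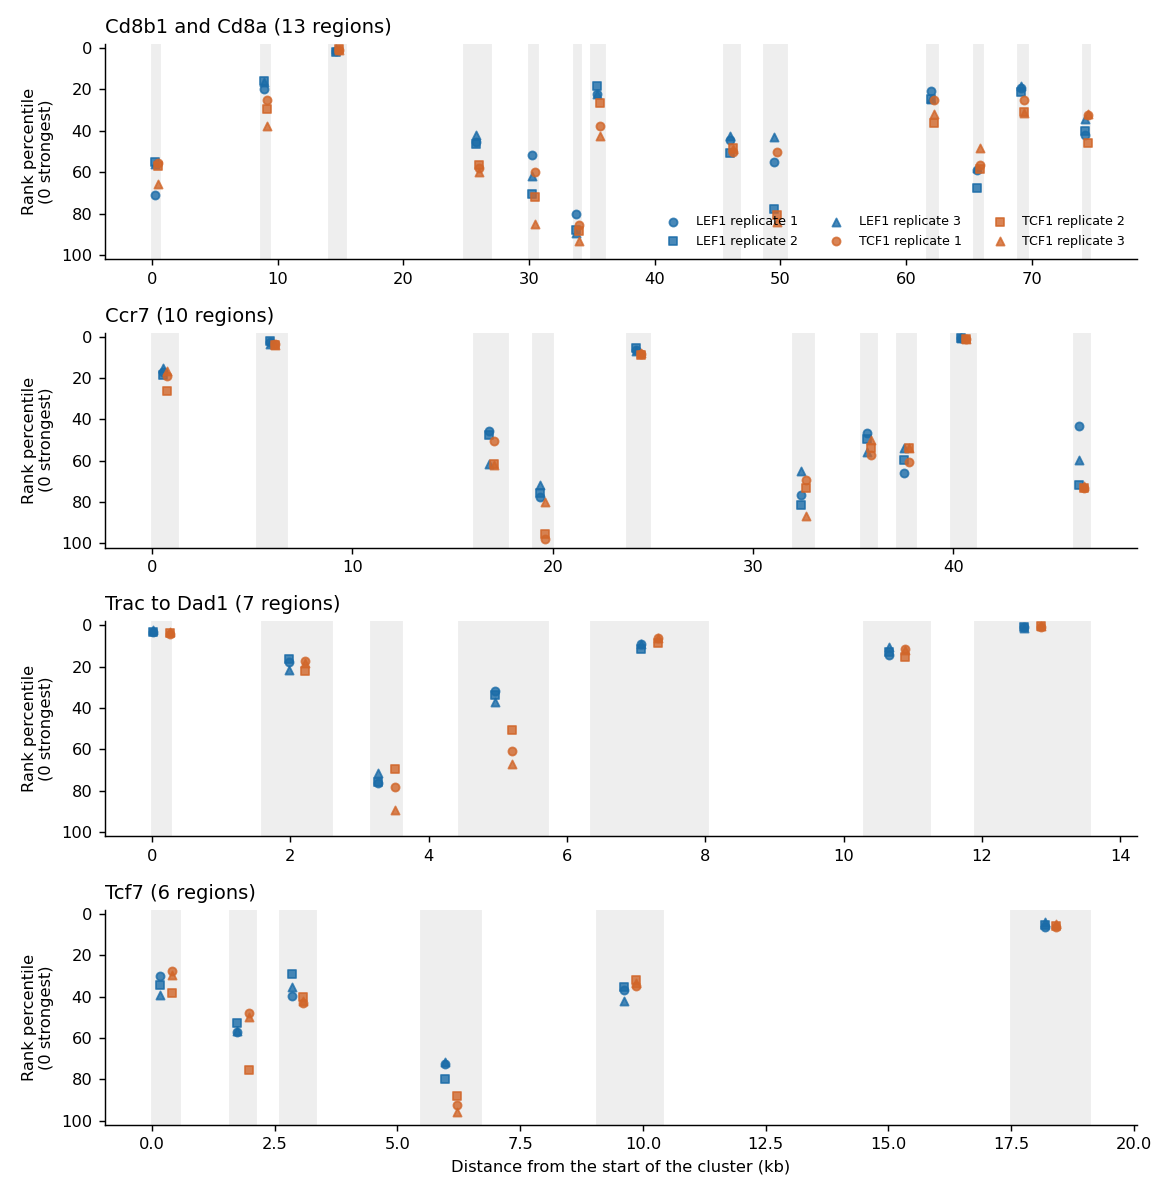
Rank percentile of each region among the shared regions of a library (y axis, 0 strongest and at the top) by distance from the start of the cluster in kb (x axis), for the clusters of Cd8b1 and Cd8a, Ccr7, Trac and Tcf7. Points are single libraries, blue for LEF1 and orange for TCF1, set slightly apart sideways, and grey bands are the widths of the regions; each cluster holds strong and weak regions, and in the Trac cluster the LEF1 points of a middle region (31.9 to 36.9) lie above the TCF1 points (50.5 to 67).

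Tcf7 itself was covered by a cluster of 6 regions in 19.1 kb (chromosome 11, 52265590 to 52284704), of which 5 lay inside the gene and 1 at its end. The end region overlaps the printed internal Tcf7 promoter and also covers the outer end of the gene at 52283383. Its fold enrichments were 58.2, 84.4 and 61.9 in LEF1 replicates 1, 2 and 3 and 58.6, 55 and 30.8 in TCF1 replicates 1, 2 and 3, the strongest of the cluster in all 6. A further cluster of 7 regions lay next to it, and the 13 regions together spread over 62.4 kb. Lef1 was not touched by a cluster. Its body of 114 kb held 10 shared regions, but none lay in a run of 4 with gaps under 12.5 kb, and the nearest cluster, with 4 regions, lay 83.6 kb away. Runx3, Il7r, Tox and Prdm1, with 4, 1, 3 and 3 shared regions in the body, were not touched either.

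Other transcription factor genes of T cells had clusters of moderate size. Ets1, which encodes a founding ETS factor, had 9 regions inside the gene and none at its ends, with a mean rank percentile over the 6 libraries of 52.4. A cluster of 8 regions that touched no protein-coding gene lay 143 kb from Ets1 (chromosome 9, 32901091 to 32942120) and ranked better, at 22.1. Its strongest region, 32925676 to 32927537, had fold enrichments of 93.5, 127 and 71.8 in LEF1 replicates 1, 2 and 3 and of 86.5, 63.7 and 38.3 in TCF1 replicates 1, 2 and 3. With a cluster at Fli1, a neighbouring ETS factor gene, these made a stretch of 3 clusters and 25 regions over 455 kb. Foxp1 and Satb1, factors of T cell quiescence and of chromatin folding, had 7 regions each, Runx1 and Ikzf1 (Ikaros) 5 each, and Bcl11b, a factor of T cell commitment, 4. Bach2, a repressor known to hold back effector genes, had 2 clusters with 4 and 6 regions, of mean rank 57.5 and 32.5. The survival gene Bcl2 had 4 regions with a mean rank of 21.3, against 63.5 for Satb1.

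Clusters beside cytokine and homing receptors also varied in rank. Cxcr4, a receptor that holds cells in bone marrow and tissue, had 9 regions in 27.6 kb and a mean rank of 33.9, and Gpr183, which guides cells by oxysterols, shared a cluster of 8 regions with Ubac2 and Gpr18 (38.3). Tgfbr2 had 7 regions (30.2), Ifnar1 7 (37.5), and Ifngr2 and Il18r1 5 each (36.8 and 33.5). Clusters of the interferon receptor genes Ifnar1 and Ifngr2 lay side by side, with 12 regions over 109 kb. Of signalling genes, Prkcq, which encodes the kinase PKC-theta, had 9 regions (32.4), Ptprc, which encodes CD45, 6 (38.7), Cd5 6 (37.5) and Lck 6 (58.7). The Gimap6, Gimap7, Gimap1 and Gimap5 genes, GTPases of lymphocytes, shared 9 regions in 40 kb (41.1). Vgll4 and Fam169b also had 9 regions each (50.2 and 55.7).

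The strongest cluster by mean rank was at Fasl, which encodes the ligand of the death receptor Fas, a gene known from effector T cells. Its 6 regions had a mean rank percentile of 7.42, 9.23 and 7.61 in LEF1 replicates 1, 2 and 3 and of 8.82, 8.69 and 9.75 in TCF1 replicates 1, 2 and 3. All 6 libraries thus placed it under 10, and the LEF1 and TCF1 ranges overlapped. Its region at a gene end from 161778707 to 161779856 on chromosome 1 had fold enrichments of 148, 186 and 97.5 in LEF1 and of 118, 110 and 66.6 in TCF1. The next were Frmd4b (11.8), Emb (17.6), the cluster over Cd2bp2, Tbc1d10b and Mylpf (17.7) and Nsmce1 (17.9), each with 4 or 5 regions. At Emb, which encodes embigin, the region 117215358 to 117216872 had 151, 196 and 148 in LEF1 and 142, 133 and 74.4 in TCF1, and ranked at or under 0.152 in all 6 libraries.

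The densest clusters were small. Rara, which encodes a retinoic acid receptor, had 4 regions in 6.39 kb (6.26 per 10 kb) and Egr1 4 in 7.07 kb (5.66). The others were the Trac cluster and those near Stard7 (5.16) and near Uaca (4.96), neither of which touched a protein-coding gene. Clusters without a protein-coding gene lay a median of 36.5 kb from the nearest (range 1.43 to 329). Those with the most regions were near Klf13, with 9 regions in 50.2 kb, and near Susd1, Chd2, Ets1 and Hbs1l, with 8 each. Each of these 5 spans overlapped at least 1 lncRNA of the table. Clusters also had clusters as neighbours: with a limit of 250 kb, 91 of the 317 fell into 43 groups. Beside the Fli1 and Ets1 stretch, the groups of 3 clusters were near Tbc1d1 and Klf3 (19 regions over 334 kb), at Ubac2 and Gpr183 (16 over 152 kb), from Spata48 to Ikzf1 (15 over 236 kb) and around Klf2 (14 over 208 kb). Klf2, a factor that keeps T cells in circulation, was itself not touched. Chromosome 11 had the most clusters, 32, and also the most shared regions, 886, of which 19.1% lay in clusters. The highest such share was 22.6%, on chromosome 8. Chromosome X had no cluster, with 174 shared regions.

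Whether LEF1 and TCF1 ranked the clusters alike was compared next. These ranks were not used to choose the regions, although each region had to be present in all 6 lists. Cluster regions ranked higher in LEF1 libraries: their mean percentile was 41.2, 42 and 41.9 in LEF1 replicates 1, 2 and 3 and 44.3, 45.5 and 45.8 in TCF1 replicates 1, 2 and 3. The means were 41.7 ± 0.416 and 45.2 ± 0.799 (SD, n = 3 libraries each), a difference of −3.53 (exact permutation test, two-sided, p = 0.1, the smallest that 3 against 3 libraries allow). The groups did not overlap. Ranked only among shared regions away from gene ends, an alternative added after seeing the data, the values were 43.8, 44.8 and 44.3 for LEF1 and 45.5, 46.6 and 46.3 for TCF1 (difference −1.85, exact permutation test, p = 0.1). The share of all peaks of a library that lay in cluster spans was 8.68%, 6.96% and 9.28% in LEF1 and 8.68%, 9.13% and 15.1% in TCF1, with overlapping groups (exact permutation test, p = 0.5). It was 13.5% to 15.1% in every library when each list was cut to its 11418 best peaks (exact permutation test, p = 1).

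Among single regions, cluster members were called on the LEF1 side more often, and on the TCF1 side less often, than shared regions at large. With limma on normal scores of the ranks (ranks turned into standard deviations of a normal curve) and Benjamini-Hochberg adjustment over all 10887 shared regions at 0.05, 3.12% of all shared regions ranked higher in LEF1 and 5.92% in TCF1. Of the 1614 cluster regions, 76 (4.71%) ranked higher in LEF1 and 32 (1.98%) in TCF1, against 2.85% and 6.6% of the other shared regions. No test was made of the difference between these shares, since regions are not replicates. Leaving out a library lowered both counts, to 14 and 8 without LEF1 replicate 1, 24 and 8 without LEF1 replicate 2, 31 and 17 without LEF1 replicate 3, 47 and 19 without TCF1 replicate 1, 42 and 15 without TCF1 replicate 2, and 49 and 21 without TCF1 replicate 3. The LEF1 count was the higher in each. Outright separation of the libraries was more frequent: 409 cluster regions (25.3%) had all 3 LEF1 libraries stronger and 150 (9.29%) all 3 TCF1 libraries, where 17.4% and 17.5% of all shared regions did.

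Calls for TCF1 were most frequent at gene ends. Of 262 cluster regions at gene ends, 7 (2.67%) were called for LEF1 and 20 (7.63%) for TCF1, and of other shared regions at gene ends 1.57% and 14.2%. Inside genes 4.73% of cluster regions were called for LEF1 and 0.895% for TCF1, and outside genes 5.61% and 0.877%, against 3.73% and 2.8%, and 3.39% and 1.54%, of the other shared regions. Calls for TCF1 were also fewer at each step in the number of regions joined, and calls for LEF1 did not move at each step in 1 direction. From lone regions to runs of 6 or more, calls for TCF1 went from 8.04% through 4.63%, 3.24% and 2.38% to 1.39%, and away from gene ends from 2.68% through 1.9%, 1.35% and 1.12% to 0.545%. Calls for LEF1 were 2.65% of lone regions, then 2.77%, 4.02% and 4.75%, and 4.64% of those in runs of 6 or more. Away from gene ends they were 3.47%, 3.21%, 4.71%, 5.11% and 5.09%. Mean rank moved with run size as well, from 52.4 to 54.5 in lone regions to 38.5 to 43.9 in runs of 6 or more over the 6 libraries, and its part in the calls was not tested.

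**Figure D4:**
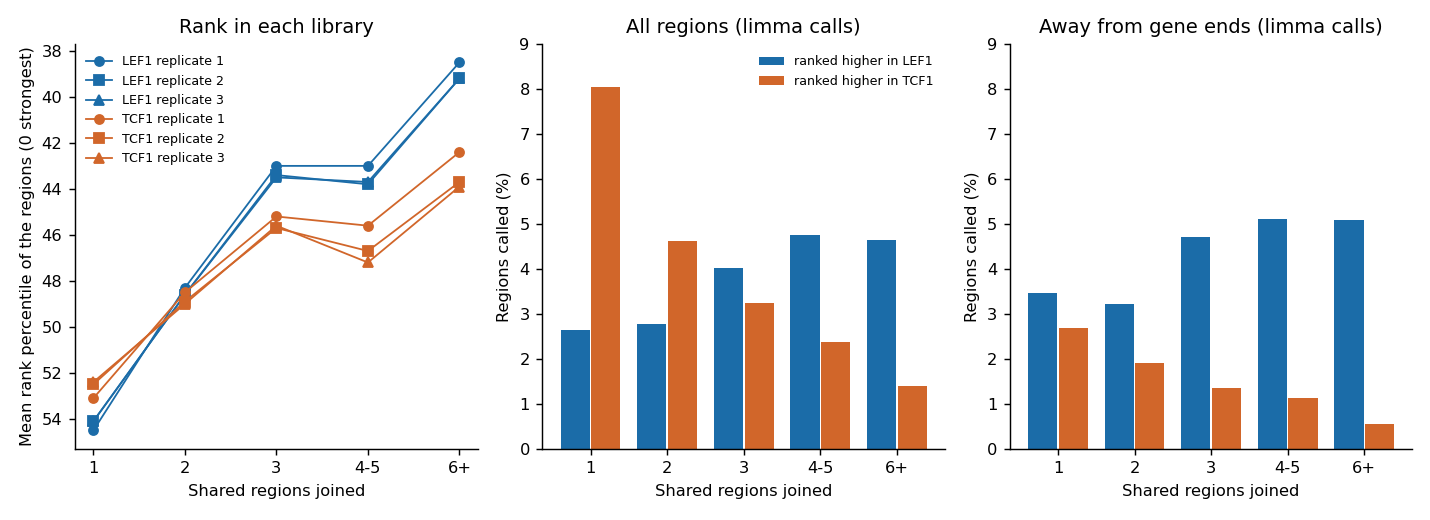
Shared regions by the number joined at gaps under 12.5 kb (x axis). Left, mean rank percentile in each library (y axis, 0 strongest and reversed), with LEF1 in blue and TCF1 in orange; middle and right, percent of regions called by limma for either factor (y axis), over all regions and away from gene ends. Calls for TCF1 go from 8.04% of lone regions to 1.39% in runs of 6 or more. The LEF1 bar is taller than the TCF1 bar from runs of 3 on over all regions (middle), and at every size away from gene ends (right).

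Whole clusters showed the same side. The mean percentile of a cluster was lower, that is stronger, in LEF1 for 257 clusters and in TCF1 for 60. All 3 LEF1 libraries were stronger than all 3 TCF1 libraries in 120 clusters (37.9%), and the reverse held in 21 (6.62%). A mean over several regions varies less than 1 region, so these shares are not to be read against those of single regions. No cluster passed an exact permutation test adjusted over the 317 clusters (smallest adjusted p = 0.225), and 3 against 3 libraries give no unadjusted p under 0.1. In 93 clusters at least 1 region was called, in 67 for LEF1, in 29 for TCF1 and in 3 for both.

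The largest difference for TCF1 was at Junb and Hook2 (chromosome 8, 84975357 to 84990602). Junb encodes a subunit of AP-1. The mean percentile of its 5 regions was 69.4, 69.9 and 68.5 in LEF1 replicates 1, 2 and 3 and 51.3, 49.2 and 54.3 in TCF1 replicates 1, 2 and 3, a difference of 17.6. The groups lay far apart. The region from 84979447 to 84980273 at a gene end ranked at 55.8, 49.7 and 62.9 in LEF1 and at 16.5, 14.8 and 14.7 in TCF1 (difference of normal scores −1.18, SE 0.114, limma adjusted p = 0.00384), and kept its call with each library left out. The region from 84975357 was also called (−1.96, SE 0.326, adjusted p = 0.0189) and had adjusted p from 0.0218 to 0.0621 with 1 library left out. It ranked near the weak end in LEF1, at 98.6, 99.3 and 99.9, and at 70.6, 62 and 88.4 in TCF1. The highest peaks of the 6 libraries lay up to 1095 bp apart in it, against a median of 46 bp over cluster regions. The difference there may thus compare separate peaks. The printed Junb promoter lies in neither of these called regions but in the one between them, 84977301 to 84979106. That region was not called (limma adjusted p = 0.106). The region inside a gene body at the far end of the cluster, 84989875 to 84990602, ranked at 13.6 to 14.9 in LEF1 and at 13.1 to 19.1 in TCF1, with overlapping groups.

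At Oga and Kcnip2 (chromosome 19, 45780261 to 45796887) a single region made the difference. Oga encodes the enzyme that removes O-GlcNAc from proteins. Its end region, 45783293 to 45784080, which holds the printed Oga promoter, had fold enrichments of 17.3, 28.6 and 15.4 in LEF1 replicates 1, 2 and 3 and of 75.2, 71.8 and 41.9 in TCF1 replicates 1, 2 and 3. It ranked at 64.6, 52.6 and 61.8 in LEF1 and at 3.17, 2.74 and 2 in TCF1, a difference of normal scores of −2.19 (SE 0.119, limma adjusted p = 0.000813, and 0.00526 to 0.00794 with 1 library left out). This was the smallest adjusted p among the cluster regions. The other 3 regions of the cluster ranked higher in LEF1 on average, and none was called.

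The clusters at Egr1 and Nr4a1 also lay on the TCF1 side. The mean percentile of the Egr1 cluster was 60.2, 67.6 and 65.4 in LEF1 and 51.4, 50.2 and 47.4 in TCF1 (difference 14.7). Its region at the gene end ranked at 58.5, 83.6 and 57.5 in LEF1 and at 24.4, 22.9 and 14 in TCF1 (limma adjusted p = 0.025, and up to 0.0586 with 1 library left out). At Nr4a1 the 5 regions had a mean of 53.9, 57.1 and 58.9 in LEF1 and of 45.7, 50.2 and 48.2 in TCF1. Its region from 101253654 to 101254244 on chromosome 15 ranked at 87, 86.4 and 91.8 in LEF1 and at 55.6, 71.1 and 61.2 in TCF1 (adjusted p = 0.0185, and up to 0.0602 with 1 library left out). At Lck, the region over the printed distal promoter ranked at 88.8, 89.5 and 87.9 in LEF1 and at 77.4, 60.3 and 64.9 in TCF1 (adjusted p = 0.0285, and up to 0.0938 with 1 library left out). The region over the proximal promoter, which holds CTTTGTT, had 29, 29 and 24.8 in LEF1 and 23, 17.7 and 24 in TCF1, and was not called (adjusted p = 0.275).

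On the LEF1 side the differences of whole clusters were of like size. Rassf2, which encodes a Ras-binding tumour suppressor, had a mean percentile of 57.2, 44.1 and 57.3 in LEF1 replicates 1, 2 and 3 and of 63.1, 68.9 and 71.8 in TCF1 replicates 1, 2 and 3 (difference −15). A cluster over the lncRNA gene Lncpint, 207 kb from Mkln1 (chromosome 6, 31176218 to 31191998), had 55.1, 55 and 55.1 in LEF1 and 68.6, 70.4 and 70.2 in TCF1 (difference −14.7). Here 3 of the 4 regions were called for LEF1, the most in a cluster. Its region from 31190554 to 31191155 ranked at 68.4, 76.4 and 73.4 in LEF1 and at 93.6, 94.6 and 95.9 in TCF1 (limma adjusted p = 0.00624, called with each library left out). The other 2 calls were at adjusted p = 0.0403 and 0.0459, and both were lost whichever library was left out. At Pigx and Cep19 the mean was 58.3, 59.3 and 63 in LEF1 and 73.6, 75.9 and 72.2 in TCF1 (difference −13.7).

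Regions called for LEF1 in the clusters of these genes ranged from weak to strong. In Tcf7 the region from 52271078 to 52272282 ranked at 72.7, 79.9 and 71.4 in LEF1 and at 92.6, 88 and 95.7 in TCF1 (difference of normal scores 0.776, limma adjusted p = 0.0352). The middle region of the Trac cluster (0.649, adjusted p = 0.0334), a region inside Prkcq (0.435, 0.0439), one inside Znrf3, a ubiquitin ligase gene that damps Wnt signals (0.434, 0.0383), and one beside Emb (0.483, 0.0343) were called likewise. The Znrf3 region was a strong one, at 15.1, 16.9 and 14.9 in LEF1 and at 27.2, 31.6 and 26 in TCF1. Each of these 5 calls was lost in at least 5 of the 6 fits with 1 library left out, where the highest adjusted p was between 0.107 and 0.121. No region of the Cd8b1/Cd8a, Ccr7 or Ets1 clusters was called for either factor, which does not show that LEF1 and TCF1 are alike there.

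**Figure D5:**
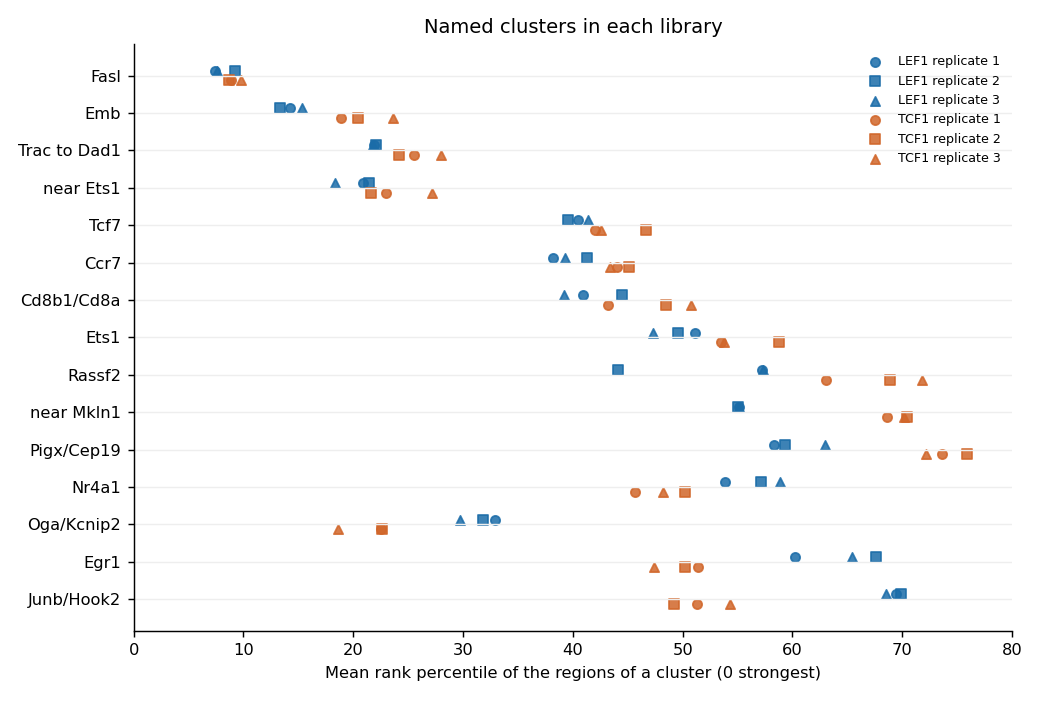
Mean rank percentile of the regions of 15 named clusters (x axis, 0 strongest), with 1 point per library, blue for LEF1 and orange for TCF1. The LEF1 points lie left of the TCF1 points at Emb, Rassf2, near Mkln1 and at Pigx/Cep19, right of them at Nr4a1, Oga/Kcnip2, Egr1 and Junb/Hook2, and overlap with them at Fasl.

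Cluster spans also held miRNA genes, whose products are short RNAs that silence messages matched by their seed, bases 2 to 8. Of 1005 hairpins in the RefSeq table, 9 (0.896%) lay in a cluster span. Those of miR-142a and miR-142b, the former abundant in blood cells, lay where a region of the cluster over Rnf43, Supt4a and Tspoap1 overlapped them. Their mature sequences are shown with the seed in capitals, since the region covers these bases.
miR-142a-5p, chr11:87756867-87756887, plus strand: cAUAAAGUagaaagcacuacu
miR-142a-3p, chr11:87756903-87756925, plus strand: uGUAGUGUuuccuacuuuaugga
miR-142b, chr11:87756906-87756925, minus strand: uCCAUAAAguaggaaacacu
No 2 of these 3 share a seed. In other clusters, a region also overlapped the hairpin of miR-6974 and mature miR-150-3p, whose hairpin is not among the 9 counted. The miRNAs themselves were not measured.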

How the data were processed

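The files are peak lists of single antibody libraries, called by the authors in each library separately, as the deposited peak names show. Per the submitters' processing notes MACS3 3.0.3, Bowtie2 2.4.4, Trim Galore 0.6.6, deepTools 3.5.1, FastQC 0.12.1 and Picard were used with build GRCm38.p6. Options of the caller, and its control, are not given. The fold enrichment of a peak is a ratio deposited by the authors, the p-value and q-value are deposited as −log10 values (smallest −log10 q 2 to 2.06 in the 6 lists), and the deposited score is the −log10 q scaled to an integer. The summit is a deposited position within the peak. All such values were used only within a list, to describe, rank or filter peaks, since read depth is unknown.

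Distinct intervals were merged (overlap of at least 1 bp), coordinates are 1-based, and clusters followed the rule given with the results. Regions were ranked within each library by the highest fold enrichment, and normal scores of the ranks were fitted with limma 3.58.1 in R 4.3.3 on group alone, over all shared regions. Single values per library were compared with exact permutation tests (20 assignments of 3 and 3 libraries, two-sided). Intervals of shares are 95% exact binomial ones (Clopper-Pearson). Gene positions, promoters and miRNAs came from RefSeq tables of GRCm38.p6. No genome sequence was used, so the letters of regions outside promoters were not analysed here. Distances to transcript starts were replaced by distances to gene ends.

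Named clusters are the 10 with the most regions, the 5 densest, the 3 longest, the 5 with the best mean rank, the 3 with the largest difference in each direction among those whose groups did not overlap, the 5 largest without a protein-coding gene, the 4 members of each gene list with the most regions, and 17 genes of T cell biology. Some genes and clusters that this rule names are not shown. Other list members, and single regions within clusters, were named after their values were seen. The members, lists and tests were chosen with earlier results of these data known. The limma step was tested on simulated data with 200 planted regions. At shifts of 0.5, 1.0 and 1.5 in normal scores it recovered 0, 120 and 174 of them, with 0, 7 and 11 false calls. Regions that were not called may therefore still differ. The data gave 340 calls for LEF1 and 644 for TCF1 over all shared regions, more than were planted, so the adjusted threshold was not the same. Calls at differences under 0.5 were made in the data, such as 0.434 at Znrf3. These recoveries thus do not give the sensitivity of the calls reported. Python 3.11.15, pandas 2.3.3, numpy 2.4.6 and scipy 1.17.1 were used. Alternatives changed the join distance, the number of regions required, the peak threshold, the list length, the ranking, the block and the libraries.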

Additional observations from a re-analysis of the deposited data

Results flagged for a closer look

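Peaks on chromosome Y, the mitochondrial genome and unplaced sequences, which the rule of the clusters leaves out, also held shared regions: 14 of 60 merged regions there had a peak in all 6 libraries, 3 of them on Y. They drew attention because they lie outside the main measurement. The libraries had 16 to 49 peaks on these sequences, and 0 clusters formed. No control list was analysed, so the level there without antibody was not tested.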

How the results depend on the processing

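The number of clusters follows the rule. Joining at 5 kb gave 109 clusters with 496 regions (4.56% of shared regions, median span 11.7 kb, 90 genes touched), and at 25 kb 542 clusters with 3061 regions (28.1%, 37.7 kb, 886 genes). Requiring 3 regions gave 698 clusters, 2757 regions, 25.3% and 728 genes, and requiring 6 gave 92, 646, 5.93% and 110. Lists of equal length gave 202 clusters, 1014 regions and 197 genes, with 2 effector, 3 cytokine receptor and 1 housekeeping gene touched. Peaks at −log10 q of at least 5, and a base covered in all 6 libraries, moved no such value by over 1.5 times. With 1 library not required, there were 317 to 883 clusters, 1616 to 5098 regions, 14.8% to 26.7% of shared regions and 347 to 1005 genes. The highest values were without TCF1 replicate 3, where lists had 16 identity, 14 receptor signalling, 9 effector, 10 cytokine receptor, 11 homing and 5 Wnt genes touched.

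The limma counts depend on every library. With 1 left out, 14 to 49 cluster regions were called for LEF1 and 8 to 21 for TCF1, and 0.606% to 2.17% and 2.14% to 3.74% of all shared regions. Of the 76 and 32 calls, 14 and 8 were among those made without LEF1 replicate 1, and 74 and 30 among those made with ranks by −log10 q. Centred log2 fold enrichments gave 56 cluster regions and 9.38% of all shared regions for TCF1, and lists of equal length 3.88% for TCF1. With the replicate number as a block, 32 and 12 cluster regions and 1.25% and 3.37% of all shared regions were called. Of the 76 and 32 calls, 29 and 12 were among these. Named calls lost with the block were those at Nr4a1, Lck, Tcf7, Trac, Prkcq, Znrf3 and Emb. Also lost were those near Tnfaip3, the LEF1 call at Pik3r5 and the weaker calls at Lncpint. Same-numbered libraries correlated in their deviations at 0.0322, 0.0623 and 0.0663, too little to pair them, though each LEF1 library correlated best with its own number. No result changed sign in any setting run. The differences of the 6 clusters named for them, of the mean percentile and of the share of peaks in spans moved by less than the spread between libraries. The lists give no read depth, so weak regions may be missing from short lists.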

Other observations

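Clusters at Nfkbia, near Tnfaip3 and at Eipr1, not described above, held regions called for LEF1. These regions were chosen after their values were seen. Beside Nfkbia, which encodes the inhibitor IkB-alpha, the region 55498787 to 55499525 on chromosome 12 ranked at 19.4, 23.8 and 20.7 in LEF1 replicates 1, 2 and 3 and at 58.2, 58.8 and 45.9 in TCF1 replicates 1, 2 and 3 (limma adjusted p = 0.0104, and up to 0.0484 with 1 library left out). Near Tnfaip3, which encodes the ubiquitin-editing enzyme A20, 2 clusters with 11 regions lay over 88.7 kb, and a region in each was called for LEF1 (adjusted p = 0.0263 and 0.0416). The first of these had adjusted p up to 0.0901 and the second up to 0.131 with 1 library left out. At Eipr1 the region 28829423 to 28829903 on chromosome 12 ranked at 45.9, 46 and 50.5 in LEF1 and at 86.6, 83 and 87.7 in TCF1 (adjusted p = 0.0026), the smallest adjusted p among cluster regions called for LEF1.

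A single cluster could hold calls in both directions. At Pik3r5, which encodes a regulatory subunit of PI3K-gamma, 8 regions formed a cluster. The region 68447170 to 68448095 on chromosome 11, inside the gene, ranked at 59.1, 63.3 and 57.1 in LEF1 replicates 1, 2 and 3 and at 16.4, 14 and 15.5 in TCF1 replicates 1, 2 and 3 (limma adjusted p = 0.0018, and 0.00788 to 0.0141 with 1 library left out). Another inside the gene, 68434346 to 68436856, ranked at 4.82, 5.15 and 4.59 in LEF1 and at 14.4, 11.3 and 10.2 in TCF1 (adjusted p = 0.0344, and 0.047 to 0.106 with 1 library left out). The cluster with Zfp36, whose protein destabilises messages, held a call for TCF1 but none for LEF1. The called region, outside genes, ranked at 79.1, 80.9 and 73.9 in LEF1 and at 48, 46 and 37.5 in TCF1 (limma adjusted p = 0.00873).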
